A study of Mus musculus with 8 samples.

Results

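The genes examined here encode the collagens, and the data are the accessible chromatin sites that lie in or near them in regulatory T (Treg) cells. Of 57199 accessible sites (peaks), 72 were collagen peaks, because the nearest protein-coding gene within 50 kb had a symbol of the form Col, number, a, number. They belonged to 27 of the 44 mouse collagen genes of that form (61.4%, against 64.9% of all protein-coding genes). Of the 72 peaks, 57 overlapped the gene. The rule used names and positions, but a site has a row only because it was called as a peak from these libraries. The members were thus selected on the presence of accessibility in the libraries, and their levels and positions are descriptions without a test. The change at Col27a1 was already known when the family was proposed and adds no independent support. Positions are in mm10.

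Collagens are secreted or membrane proteins with long triple-helical stretches, each made of chains wound together. Fibrillar collagens give tissues tensile strength, network collagens form basement membranes, and other classes decorate fibrils, anchor epithelia or span cell membranes. They are made mainly by fibroblasts, chondrocytes, osteoblasts, epithelial and endothelial cells, and T cells are not known as a main source. Treg cells are CD4 T cells that hold back immune responses and require Foxp3, a transcription factor.

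The Treg cells were sorted from spleens of mice reconstituted with mixed bone marrow, as CD45.2+ CD45.1- CD4+ cells carrying a Foxp3-driven yellow fluorescent protein, 4 libraries per group. The WT group came from WT mixed chimeras. The Flcn KO group came from chimeras with Foxp3Cre Flcn fl/fl marrow, in which Foxp3-driven Cre deletes Flcn in Foxp3-expressing cells. Flcn encodes folliculin, a lysosomal regulator of mTORC1 signalling and of the factors TFEB and TFE3. Age, the number of animals behind a library, the deleted exons and whether the WT donors carried Cre are not given in the labels used here.

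The assay was ATAC-seq, whose transposase cuts and tags open DNA. Levels are CPM, counts scaled to a common library size after TMM normalization. The libraries held 2723344 to 5111728 counts, the lowest being Flcn KO replicate 4. Peaks were assigned to all 5 Treg marker genes fixed for this check (Foxp3, Il2ra, Ikzf2, Ctla4 and Tnfrsf18), with summed levels of 1176 to 1285 CPM in WT against 1226 to 1451 CPM in Flcn KO. Of 8 fibroblast and stromal markers, 4 had a peak, with sums of 36.9 to 59.4 CPM in WT against 28.7 to 51.4 CPM in Flcn KO. Dcn, Lum, Prrx1 and Tcf21 had none, and 0 of the 8 tested stromal marker peaks passed by edgeR, 0 by DESeq2 or limma-voom, and 0 at an unadjusted p below 0.05. Among all tested peaks 2.37% passed by edgeR and 12.9% had an unadjusted p below 0.05, so counts of 0 among so few peaks say little. Of 68 tested Treg marker peaks, 3 were higher and 1 lower in Flcn KO, at Ctla4, Ikzf2 and Il2ra. For endothelial markers 3 of 6 genes had a peak (132 to 163 CPM in WT, 138 to 150 CPM in Flcn KO), and 0 of 12 tested peaks passed by any of these tools, with 1 higher and 2 lower at an unadjusted p below 0.05. Peaks were also assigned to 3 of 6 B cell and 2 of 6 myeloid markers. The part of other cell types in the collagen results was not tested. In a sorted population, more cells with an open site and a more open site per cell cannot be told apart.

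Called peaks rarely overlapped the starts of collagen genes. RefSeq promoter windows (250 bases before to 50 after a gene start, build GRCm38.p6) were matched for 35 of the 44 collagen genes. A peak overlapped the window for 2 of these 35 genes (5.7%), against 8725 of 17492 protein-coding genes with a window (49.9%). Among the Treg markers, 2 of the 4 genes with a window had such a peak, Il2ra and Ctla4. Foxp3 and Tnfrsf18 did not, so a window without a peak is not shown to be closed. The collagen genes with such a peak are Col27a1, a fibrillar collagen gene, and Col25a1, a transmembrane collagen gene. Their promoter windows are shown because they are the collagen starts at which these cells gave a peak. Capitals mark CG dinucleotides, the sites of DNA methylation.
Col27a1: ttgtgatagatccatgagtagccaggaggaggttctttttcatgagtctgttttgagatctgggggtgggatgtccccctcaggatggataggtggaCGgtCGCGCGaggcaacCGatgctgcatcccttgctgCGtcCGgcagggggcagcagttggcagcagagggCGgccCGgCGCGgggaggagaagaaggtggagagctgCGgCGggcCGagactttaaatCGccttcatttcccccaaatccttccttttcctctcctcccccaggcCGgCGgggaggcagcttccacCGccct
Col25a1: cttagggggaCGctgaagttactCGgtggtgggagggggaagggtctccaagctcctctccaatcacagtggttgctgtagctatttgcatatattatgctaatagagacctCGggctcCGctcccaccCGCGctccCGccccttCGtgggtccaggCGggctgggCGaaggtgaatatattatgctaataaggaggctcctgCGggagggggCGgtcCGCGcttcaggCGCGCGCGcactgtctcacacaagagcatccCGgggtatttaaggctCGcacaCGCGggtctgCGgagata

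The Col27a1 window lies at chr4:63215162-63215461 on the plus strand. It holds 18 CG dinucleotides at 61.7% G+C, and the peak there covered all 300 bases. The Col25a1 window lies at chr3:130180595-130180894, also on the plus strand. It holds 23 CG dinucleotides at 60.0% G+C, and its peak covered 156 bases. The median was 11.5 CG dinucleotides over 38 collagen promoter windows and 13.0 over 21263 protein-coding windows, so both windows stood above both medians. Neither window held any of the motifs searched on both strands, which were the E-box CACGTG, the AP-1 site TGACTCA, the ETS site CCGGAAGT and the TATA-like TATAAA. Over the 38 collagen windows, CACGTG was in 0 (7.8% of all windows), CCGGAAGT in 0 (5.1%), TGACTCA in 1, at Col6a1 (4.7%), and TATAAA in 5 (12.6%). The motifs do not overlap each other, and no match says only that these letters are not in the window.

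Collagen genes were sparse in accessible sites for their length. Their median length was 114.4 kb, against 17.2 kb over all protein-coding genes. The 57 peaks overlapping 5.44 Mb of collagen gene span gave 10.5 peaks per Mb, against 34.8 per Mb over all genes. Without Col15a1, which held 15 of those 57 peaks, the density was 7.9 per Mb. Counted per gene, collagen genes stood near the share over all genes. A peak was assigned to 61.4% of them, against 64.9% of all protein-coding genes, with a median of 1.0 peaks per gene in both. Genes of the non-collagen matrix (fibronectin, laminins, fibrillins, proteoglycans and others; 46 genes) held 16.3 peaks per Mb, with a peak at 7 of 32 known starts (21.9%). Genes for collagen-processing enzymes and chaperones, which hydroxylate, fold, cleave and crosslink collagen chains, held 21.9 per Mb, with a peak at 12 of 22 known starts (54.5%). RNA is not part of these data, so whether the collagen genes are silent in these cells is not known here.

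The collagen peaks that did occur were of modest height. Per kb of peak width, their median level over the 8 libraries was 12.9 CPM, with an interquartile range of 8.30 to 23.3, against 18.4 CPM per kb over all peaks. Of the 72, 28 stood above the median of all peaks and 0 were among the top 10% of peaks by level per kb. The highest collagen peak by this measure, inside Col15a1, reached 75.8 CPM per kb. By CPM without regard to width, 2 collagen peaks were among the top 10%. The median was also below that of all peaks for collagen receptor genes (13.8 CPM per kb), non-collagen matrix (17.1) and processing enzymes and chaperones (17.4). Of the 72 peaks, 7 (9.7%) lay within 1 kb of a gene end, against 21.8% of all peaks and 24.3% of peaks assigned to a gene. These shares were not adjusted for gene length, and collagen genes had the greater median length. The members farthest from their gene were a pair of peaks 25.8 and 27.6 kb from Col6a3, with 5.15 and 4.66 CPM in WT against 5.49 and 5.30 CPM in Flcn KO. The nearest peaks outside the 50 kb limit lay 84.9 and 91.0 kb from Col4a1, with 3.88 and 10.8 CPM in WT against 5.56 and 14.0 CPM in Flcn KO. The next, 96.6 kb from Col12a1, was called lower, with 5.00 CPM in WT against 0.764 CPM in Flcn KO (edgeR log2 fold change -2.49, SE 0.59, adjusted p = 0.0139).

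**Figure D1:**
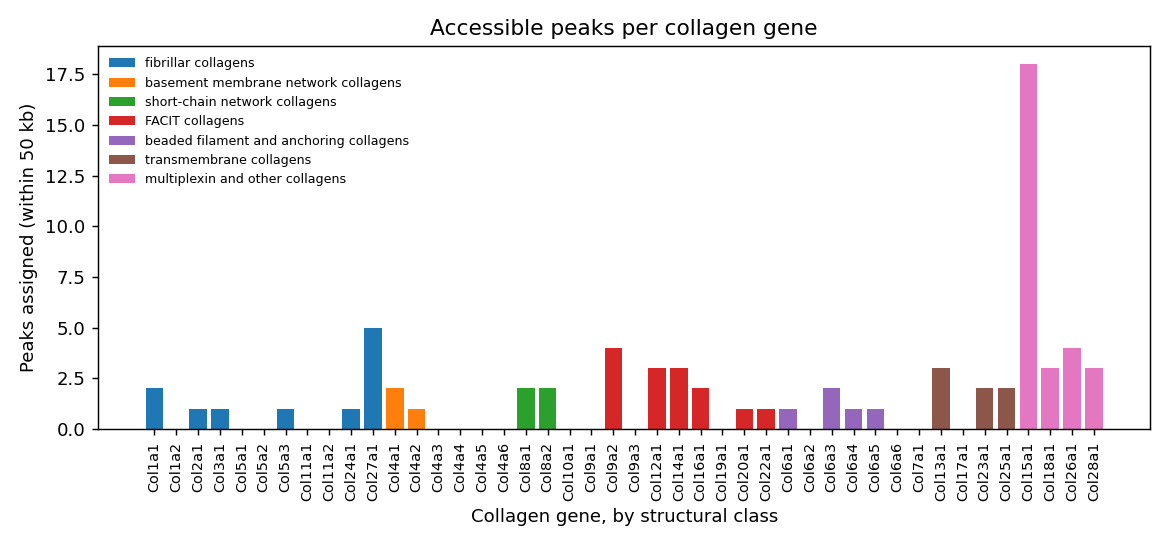
Number of peaks assigned to each of the 44 collagen genes (bars, within 50 kb of the gene), coloured by structural class. Col15a1 had 18 peaks, Col27a1 had 5, and 17 genes had 0. The share with a peak was 61.4%, against 64.9% of all protein-coding genes.

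By class, peaks were unevenly spread. Among fibrillar collagens 6 of 11 genes had a peak, and Col1a2, Col5a1, Col5a2, Col11a1 and Col11a2 had none. Among the basement membrane network collagens, only Col4a1 and Col4a2 of 6 genes had a peak, 3 in all. The class of multiplexins and others, which groups Col15a1, Col18a1, Col26a1 and Col28a1, held 28 peaks, the FACIT collagens, which attach to fibril surfaces, 14 in 6 of 9 genes, and the transmembrane collagens 7 in 3 of 4 genes. The short-chain network collagens had 4 peaks, in Col8a1 and Col8a2, and the beaded-filament and anchoring collagens had 5, in 4 of 7 genes. Col7a1, whose product anchors epidermis to dermis, had none.

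The comparison of the study sets Treg cells without Flcn beside WT cells. Of the 72 collagen peaks, 53 passed a filter on low counts and were tested. In Flcn KO, accessibility rose at 3 of these 53 peaks, at Col27a1 (2 peaks) and beyond Col15a1, and fell at 1, near Col16a1, while 49 did not pass (edgeR quasi-likelihood test, adjusted p below 0.05 over 47859 tested peaks). Over all tested peaks, 1.35% rose and 1.02% fell, 2.37% together. Of the 4 called peaks, 2 belong to Col27a1, and without that gene 2 of 48 passed. DESeq2 and limma-voom each called the same 4 collagen peaks and 0 others. The median log2 fold change (Flcn KO minus WT) was 0.06 over the 53 collagen peaks and 0.00 over all tested peaks.

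At an unadjusted p below 0.05, 8 of the 53 collagen peaks were higher and 3 lower, where all tested peaks gave 6.87% and 5.99%. The higher ones were 4 peaks of Col27a1, 3 of Col15a1 and 1 of Col28a1. The lower ones were at Col16a1, Col6a1 and Col25a1. The libraries of the groups did not overlap at 4 higher and 2 lower peaks, against 4.03% and 3.56% of all tested peaks, 7.59% together. These counts use only members that passed the filter on low counts, which a peak can pass through the group in which it is high.

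**Figure D2:**
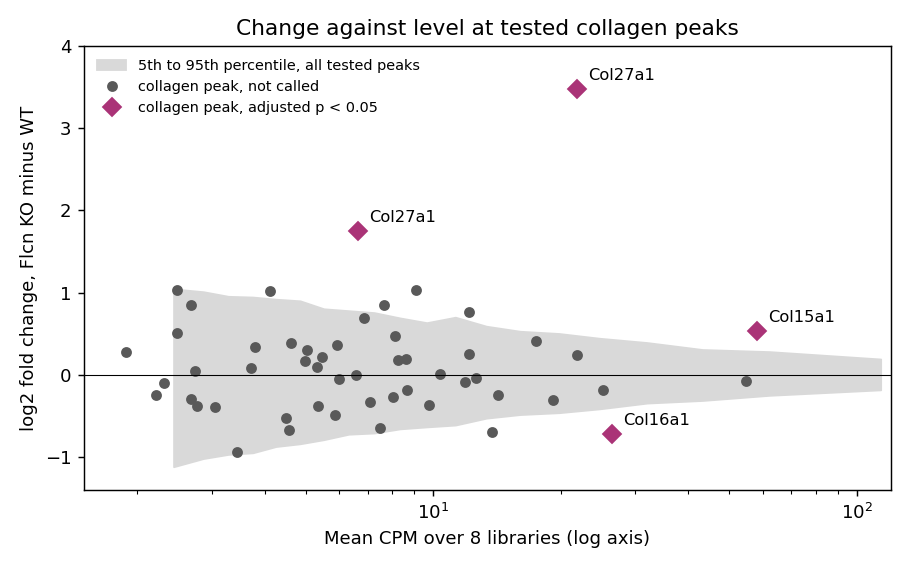
Log2 fold change (Flcn KO minus WT) against mean CPM over 8 libraries (log axis) for the 53 tested collagen peaks. The band spans the 5th to 95th percentile of all tested peaks, and the 4 called peaks (diamonds) are labelled by gene, with changes of 3.47, 1.75, 0.54 and -0.72.

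Col27a1 encodes a fibrillar collagen known from cartilage. All 5 of its peaks overlapped the gene, the outermost only at the gene end, and they did not change alike. The tallest in Flcn KO, 7.1 kb into the gene (chr4:63222132-63222869), held 2.49, 5.35, 4.08 and 2.46 CPM in WT replicates 1 to 4 and 36.8, 39.0, 51.7 and 32.8 CPM in Flcn KO. Every Flcn KO library stood far above every WT library. The change was 11.1-fold (3.47 on the log2 scale, SE 0.24, edgeR adjusted p = 2.77e-12). In WT this site was among the lower of the Col27a1 peaks, at 3.60 ± 1.39 CPM (SD, n = 4), and in Flcn KO it was the highest, at 40.1 ± 8.19 CPM.

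The peak at the outer end of the gene (chr4:63213775-63214128) was centred at -1461 bp from the listed start. It held 2.49, 1.78, 4.08 and 3.94 CPM in WT against 9.39, 15.5, 8.45 and 7.62 CPM in Flcn KO. The groups did not overlap, and Flcn KO replicate 2 was the highest. The site rose 3.36-fold (1.75 on the log2 scale, SE 0.34, edgeR adjusted p = 0.00159). It and the site inside the gene were called under each of the 17 alternatives that were fitted, with log2 fold changes of 1.49 to 1.91 and 3.32 to 3.74.

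At the listed start itself, where the promoter sequence above lies, the peak (chr4:63215152-63215545) held 7.47, 4.91, 4.59 and 6.40 CPM in WT against 11.3, 10.2, 6.46 and 21.3 CPM in Flcn KO. Flcn KO replicate 4 was high and Flcn KO replicate 3 lay within the WT range. The fitted log2 change was 1.03 (SE 0.31, edgeR adjusted p = 0.0669), which did not pass. Without Flcn KO replicate 3 it was 1.24 and passed (adjusted p = 0.0237), and without Flcn KO replicate 4 it was 0.67 and did not (adjusted p = 0.387).

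Farther into Col27a1, the groups lay closer. A peak 38.8 kb from the start held 6.63 to 13.3 CPM in WT against 9.39 to 13.0 CPM in Flcn KO, a fitted log2 change of 0.02 (SE 0.26). The most distant peak, 92.2 kb in, held 4.43 to 7.14 CPM in WT against 4.23 to 10.7 CPM in Flcn KO, a fitted log2 change of 0.70 (SE 0.32, edgeR adjusted p = 0.338). Within this gene the called changes were at the outer end and 7.1 kb in, and the peak 38.8 kb in had the smallest fitted change. Differences between these peaks were not tested.

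**Figure D3:**
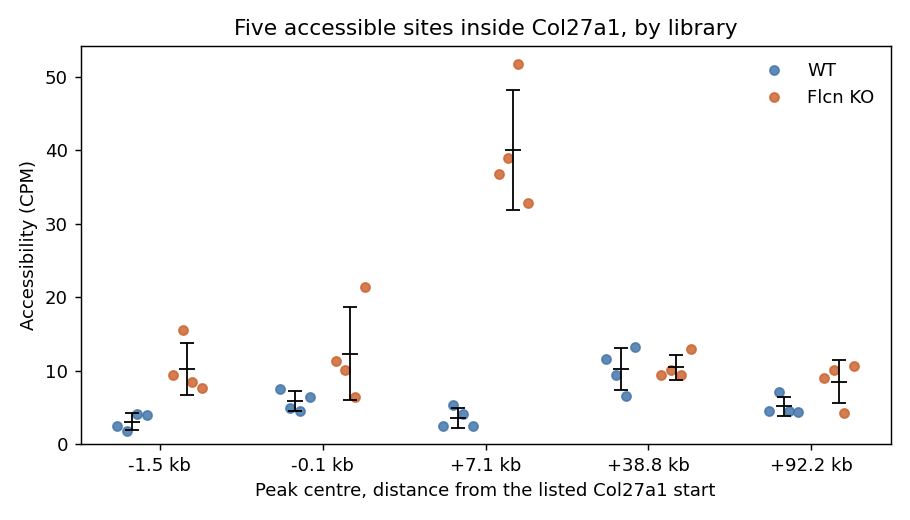
Accessibility (CPM) at the 5 Col27a1 peaks, ordered by distance of the peak centre from the listed start. Points are libraries, bars are mean and SD (n = 4). At 7.1 kb, WT libraries lie between 2.46 and 5.35 CPM and Flcn KO libraries between 32.8 and 51.7 CPM.

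Summed over its 5 peaks, Col27a1 held 24.0 to 30.5 CPM in WT against 75.9 to 85.3 CPM in Flcn KO. The sum over all 72 collagen peaks was 536 ± 35.4 CPM in WT against 597 ± 38.6 CPM in Flcn KO (SD, n = 4). Leaving Col27a1 out, the sums were 508 ± 33.7 and 515 ± 41.3 CPM, a difference smaller than the spread between libraries. Collagen peaks took 0.0484% to 0.0649% of each library's counts.

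Col15a1 encodes a multiplexin collagen of basement membrane zones, whose C-terminal fragment resembles endostatin. With 18 peaks, 15 of them inside the gene, it was the most accessible collagen locus, yet no peak overlapped its listed start. The nearest lay 26.9 kb into the gene. Of its peaks, 7 also overlapped a long noncoding RNA gene of RefSeq, and ATAC-seq carries no strand by which to assign them. Moving past the far end of Col15a1, the next protein-coding gene is Tgfbr1, which encodes a TGF-beta receptor.

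The peak with the highest mean CPM of all collagen peaks (chr4:47319655-47320477) lay 6.5 kb beyond the end of Col15a1 and 32.7 kb from Tgfbr1. It held 58.7, 49.5, 35.2 and 45.8 CPM in WT against 73.5, 59.8, 78.6 and 63.2 CPM in Flcn KO. The groups did not overlap, but the highest WT and lowest Flcn KO library lay within about 1 CPM. It rose 1.45-fold (0.54 on the log2 scale, SE 0.13, edgeR adjusted p = 0.0180). The call ended without WT replicate 3 (log2 fold change 0.42, adjusted p = 0.106), WT replicate 4 (0.52, 0.0649) or Flcn KO replicate 3 (0.47, 0.102). Nearer Tgfbr1, a peak 1458 bp from that gene (chr4:47351458-47351764) moved the other way, from 20.1 ± 1.30 to 3.95 ± 0.453 CPM (SD, n = 4). Its log2 fold change was -2.36 (SE 0.25, edgeR adjusted p = 8.01e-08). The other tested peaks assigned to Tgfbr1 were not called, with log2 fold changes from -1.18 to 0.68.

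The strongest site inside Col15a1 (chr4:47250986-47251708) held 61.6, 56.2, 55.1 and 51.2 CPM in WT against 44.6, 63.6, 45.2 and 61.0 CPM in Flcn KO. The groups overlapped fully, with a fitted log2 change of -0.08 (SE 0.13, edgeR adjusted p = 0.880). A site 54.1 kb into the gene (chr4:47261848-47262352) held 4.57 to 6.89 CPM in WT against 8.38 to 10.9 CPM in Flcn KO without overlap, but did not pass (0.86, SE 0.28, adjusted p = 0.108). Another, 66.0 kb in (chr4:47273837-47274278), held 8.30, 11.6, 9.69 and 6.89 CPM in WT against 19.2, 21.4, 14.9 and 5.33 CPM in Flcn KO. Flcn KO replicate 4, the shallowest library, was the lowest of all 8 there. The fitted log2 change was 0.77 (SE 0.28, adjusted p = 0.179), and without that library it was 1.02 and passed (adjusted p = 0.0204). Without Flcn KO replicate 2 it was 0.58 (adjusted p = 0.459) and without WT replicate 4 it was 0.66 (adjusted p = 0.381). The outermost Col15a1 peak, 9.2 kb beyond the gene, held 18.5 to 28.3 CPM in WT against 15.5 to 18.4 CPM in Flcn KO, without overlap (-0.30, SE 0.19, adjusted p = 0.562).

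Over the 17 tested Col15a1 peaks, 11 fitted changes were above 0 and 6 below, with a median of 0.24 and a range of -0.37 to 0.86. Of these, 1 passed, where 2.37% of all tested peaks did. The summed level ran from 218 to 259 CPM in WT and from 258 to 306 CPM in Flcn KO, so the groups overlapped slightly.

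**Figure D4:**
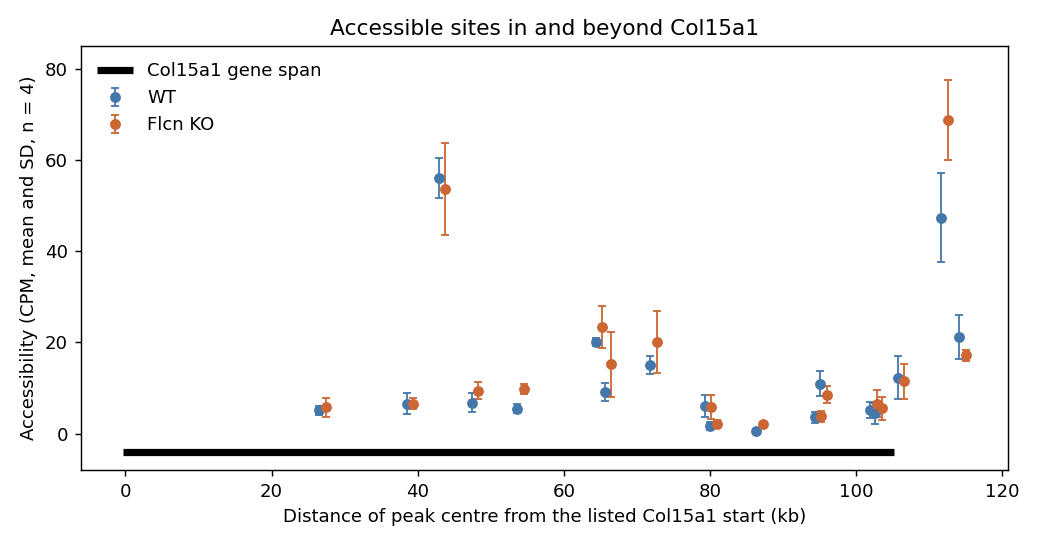
Accessibility (CPM, mean and SD, n = 4) at the 18 Col15a1 peaks by distance of the peak centre from the listed start, with the gene span as a black bar. The called peak beyond the gene end rises from 47.3 to 68.8 CPM, while the strongest peak inside the gene stays at 56.0 and 53.6 CPM.

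Col16a1 encodes a FACIT collagen. The collagen peak that fell (chr4:130045616-130046081) lay 1736 bp outside the gene, centred at -1992 bp from its listed start, and overlapped the long noncoding RNA gene Gm12963. It held 37.4, 34.6, 30.6 and 29.5 CPM in WT against 23.5, 17.1, 22.4 and 16.4 CPM in Flcn KO. All Flcn KO libraries stood below all WT libraries. The site fell by 0.72 on the log2 scale (SE 0.17, edgeR adjusted p = 0.0127). It was no longer called when WT replicate 1, WT replicate 2, Flcn KO replicate 2 or Flcn KO replicate 4 was left out (adjusted p of 0.0512 to 0.0629, log2 fold change -0.70 to -0.65). The other Col16a1 peak, inside the gene, had a fitted log2 change of -0.37 (SE 0.47).

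The chains of collagen VI form beaded filaments. The peak inside Col6a5 (chr9:105887502-105887901) held 17.9, 22.3, 14.0 and 15.0 CPM in WT against 21.5, 8.55, 6.96 and 3.81 CPM in Flcn KO. Flcn KO replicate 1 lay in the WT range and the other Flcn KO libraries below it. With all libraries the fitted log2 change was -0.69 (SE 0.33, edgeR adjusted p = 0.393). Without Flcn KO replicate 1 it was -1.38 and passed (adjusted p = 0.000933), while without Flcn KO replicate 4 it was -0.46 (adjusted p = 0.613) and without Flcn KO replicate 3 it was -0.53 (adjusted p = 0.623). The peak 9.0 kb from Col6a1 held 6.25 to 10.8 CPM in WT against 4.69 to 7.62 CPM in Flcn KO (-0.64, SE 0.29, adjusted p = 0.333). Inside Col6a4, a peak too low to pass the filter held 3.74, 4.02, 3.06 and 2.46 CPM in WT against 1.56, 1.60, 1.49 and 0 CPM in Flcn KO.

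**Figure D5:**
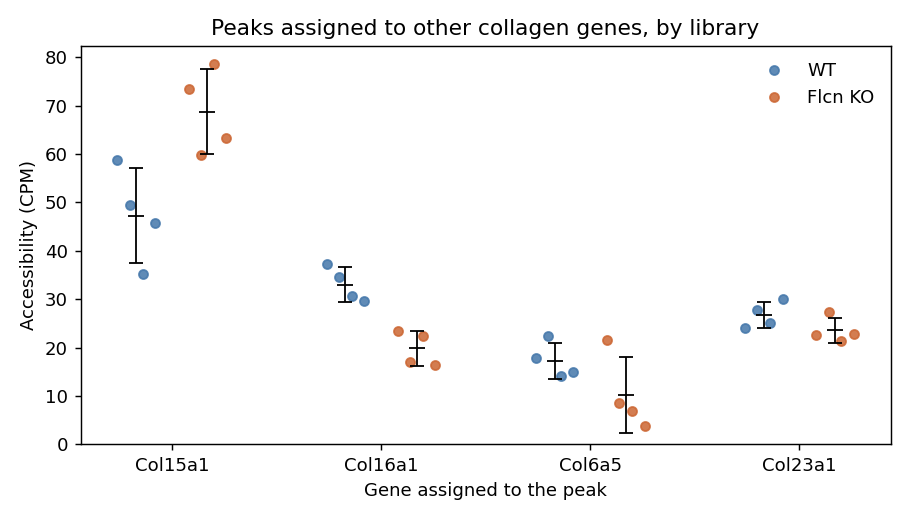
Accessibility (CPM) by library at the called peaks near Col15a1 and Col16a1 and at the highest peaks of Col6a5 and Col23a1. Points are libraries, bars are mean and SD (n = 4). At Col6a5, Flcn KO replicate 1 (21.5 CPM) stands apart from the other Flcn KO libraries (3.81 to 8.55 CPM).

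Transmembrane collagens are anchored in the cell membrane and can be shed. The strongest peak of the class, inside Col23a1 (chr11:51539599-51540024), held 24.1 to 30.0 CPM in WT against 21.4 to 27.3 CPM in Flcn KO (-0.18 on the log2 scale, SE 0.17, edgeR adjusted p = 0.734). At Col25a1, whose promoter sequence is shown above, the peak under the promoter window was too low to pass the filter. It held 0.830, 0.446, 2.04 and 2.46 CPM in WT against 0.782, 1.07, 0 and 0 CPM in Flcn KO. The other Col25a1 peak (chr3:130180093-130180425) overlapped the end of the gene span and was centred at -586 bp from the listed start. It held 4.57, 6.25, 3.06 and 4.43 CPM in WT against 3.13, 2.14, 2.49 and 1.52 CPM in Flcn KO. The groups overlapped by 1 library each, and the change did not pass (-0.94, SE 0.42, adjusted p = 0.325). The 3 Col13a1 peaks were all too low to pass the filter.

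The main interstitial collagens, Col1a1, Col1a2 and Col3a1, build most fibrils of skin, bone and vessel walls. The Col1a1 peak 552 bp inside a gene end (chr11:94936776-94937573) held 5.81, 4.02, 5.10 and 9.35 CPM in WT against 4.50, 6.41, 4.48 and 3.05 CPM in Flcn KO (-0.37 on the log2 scale, SE 0.35, edgeR adjusted p = 0.735). At 6.69 CPM per kb it was among the lowest collagen peaks for its width. The Col3a1 peak (chr1:45314001-45314262) held 0.984 to 2.68 CPM in WT against 2.14 to 4.69 CPM in Flcn KO (0.51, SE 0.50, adjusted p = 0.751). Both genes' groups overlapped, and Col1a2 had no peak. Single libraries moved both values in either direction. The Col1a1 change was -0.10 without WT replicate 4 and -0.24 without Flcn KO replicate 4, but -0.56 without Flcn KO replicate 2. The Col3a1 change was 0.15 without Flcn KO replicate 1 and 0.29 without WT replicate 4, but 0.65 without WT replicate 2.

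Col28a1 encodes a collagen with von Willebrand factor A domains. Both peaks inside the gene had log2 fold changes above 1 that did not pass. The taller (chr6:8068378-8068740) held 2.08, 3.57, 2.04 and 2.95 CPM in WT against 3.13, 4.81, 5.97 and 8.38 CPM in Flcn KO (1.02, SE 0.41, edgeR adjusted p = 0.233). The other had 1.61 CPM in WT against 3.36 CPM in Flcn KO (1.03, SE 0.55, adjusted p = 0.446). Together with 3 Col27a1 peaks they were the 5 tested collagen peaks at or above a 2-fold fitted rise, while 0 fell by as much. Over all tested peaks, 4.22% changed by at least 2-fold in either direction.

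No other collagen peak passed by edgeR, DESeq2 or limma-voom. The strongest short-chain network peak, inside Col8a1 (chr16:57634197-57634519), held 9.08 to 15.9 CPM in Flcn KO and 9.55 to 13.3 CPM in WT (0.25 on the log2 scale, SE 0.24, edgeR adjusted p = 0.741; 0.14 without Flcn KO replicate 3 and 0.40 without Flcn KO replicate 2). The Col4a1 peak that passed the filter, in a gene of the basement membrane network, held 2.37 ± 1.59 CPM in WT against 2.27 ± 0.946 CPM in Flcn KO (SD, n = 4), indistinguishable at this depth. Among FACIT collagens 9 of 10 tested peaks did not pass, with a class median of -0.28. Col9a2 had 4 peaks (3 tested, -0.67 to 0.86) and Col26a1 had 4 (2 tested, -0.38 and 0.20), and 0 of these passed. The tallest Col9a2 peak, inside the gene, held 12.0, 8.92, 8.67 and 6.89 CPM in WT against 5.87, 8.02, 8.45 and 10.7 CPM in Flcn KO. The tallest Col26a1 peak held 8.72, 9.37, 7.65 and 5.90 CPM in WT against 5.08, 11.8, 8.95 and 11.4 CPM in Flcn KO. The groups overlapped at both. The 19 untested collagen peaks had means of 0.953 to 2.80 CPM, and in 10 of them the Flcn KO mean was the higher. For Col13a1, Col20a1, Col4a2, Col6a4 and Col8a2, no peak passed the filter on low counts.

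Among all tested peaks, 2.37% were called and 12.9% had an unadjusted p below 0.05, beside which the lists of genes that act on or bind collagens can be read. Among 44 tested peaks of processing enzymes and chaperones, 0 rose and 0 fell by edgeR, DESeq2 or limma-voom, with 3 higher and 5 lower at an unadjusted p below 0.05 and a median change of -0.03. Among 30 tested peaks of collagen receptors, 1 rose and 0 fell (median -0.11; 1 higher and 2 lower at an unadjusted p below 0.05), and limma-voom called 0. It lay 22.3 kb from Ddr1, a collagen-binding receptor tyrosine kinase gene, with 0.830, 1.34, 1.53 and 2.95 CPM in WT against 3.91, 7.48, 4.97 and 6.86 CPM in Flcn KO, without overlap (log2 fold change 1.79, SE 0.45, adjusted p = 0.0213). Among 92 peaks of the non-collagen matrix, 2 rose and 0 fell by edgeR (median -0.11; 5 higher and 9 lower at an unadjusted p below 0.05), and DESeq2 called 1 lower.

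The higher matrix peaks lay inside Fbn1, which encodes the microfibril protein fibrillin-1, and Lamc1, which encodes a laminin chain of basement membranes. The Fbn1 site held 6.02, 5.80, 8.16 and 4.92 CPM in WT against 8.60, 15.5, 22.9 and 22.9 CPM in Flcn KO, with Flcn KO replicate 1 close to the WT range (1.46, SE 0.28, edgeR adjusted p = 0.00147). The Lamc1 site rose from 10.8 ± 1.81 to 20.7 ± 2.76 CPM (SD, n = 4; 0.93, SE 0.21, adjusted p = 0.00835). These lists passed at 0%, 3.33% and 2.17% of tested peaks, beside 7.55% of collagen peaks and 2.37% of all tested peaks. Without Col27a1, whose change was already known, 4.17% of collagen peaks passed, and without Col15a1 and Col27a1 3.23% did. Whether the lists differ was not tested.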

How the data were processed

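The values are raw, unnormalized counts in shared mm10 peaks for 8 libraries (4 WT, 4 Flcn KO), as the authors deposited them. The tools listed in the submitters' processing notes are MACS2 2.1.1, bedtools 2.25.0, BWA 0.7.16, Trimmomatic 0.36, SAMtools 1.9 and Picard 2.9.4. Their roles, duplicate handling, any transposase shift and whether libraries were pooled for peak calling are not known here. Between 88.7% and 92.7% of values per library were even, so both ends of most pairs appear to be counted. Peak starts were taken to count from 0, as in BED files, and converted.

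Each peak was assigned to the nearest of 21887 protein-coding gene spans (RefSeq, GRCm38.p6; ties to the nearest gene end). Assignment is by position and does not show which gene a site regulates. Peaks with low counts were removed (edgeR filterByExpr, minimum count 10), leaving 47859. Genotype was tested with edgeR 4.0.16 (TMM, robust quasi-likelihood, Benjamini-Hochberg over all tested peaks; R 4.3.3). The SE given with an edgeR change is the absolute log2 fold change divided by the square root of the test's F statistic. It is derived from the test and is not a standard error estimated by the fit. On counts simulated for this comparison, the test recovered 48.9% of 92 2-fold and 96.6% of 87 4-fold changes that had passed the filter. It made 7 false calls among 45857 simulated peaks. The simulated spread between libraries depended on peak level alone, without spread particular to a peak or the excess of even counts. Recovery and false calls in the real data can therefore differ. The changes were set at peaks of all levels, so recovery at the lower levels of collagen peaks was not measured. Alternatives used other scalings and filters, DESeq2 1.42.0, limma-voom (limma 3.58.1), a replicate block, narrower assignment and leaving out each library. The members and lists were chosen with earlier results of these data known. Named by rule are called peaks, peaks with unadjusted p below 0.05 (full values past 2-fold), the tallest peak of each class, peaks at gene starts, the 5 genes with most peaks, and Col1a1, Col1a2 and Col3a1. The fifth place was a tie of 5 genes with 3 peaks each (Col12a1, Col13a1, Col14a1, Col18a1 and Col28a1), so only the first 4 and Col28a1, named by its p, are described for their peaks. The Col6a4 peak, the outermost and strongest inner Col15a1 peaks, and the less tall Col28a1 peak were added after their values were seen.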

Additional observations from a re-analysis of the deposited data

Results flagged for a closer look

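Over 38 groups of 4 libraries (19 of the peaks described above, WT and Flcn KO), 3 single libraries stood far from the others of their group, where chance gives about 1 in 20 groups. At the Col27a1 peak 92.2 kb into the gene, WT replicate 2 held 7.14 CPM and the other WT libraries 4.43 to 4.59 CPM. At the tested Col4a1 peak, WT replicate 3 held 0 CPM and the others 2.91 to 3.44 CPM. At the Col3a1 peak, Flcn KO replicate 1 held 4.69 CPM and the others 2.14 to 2.49 CPM. None of these peaks was called.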

How the results depend on the processing

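The count of 3 higher collagen peaks stayed at 3 under other scalings, filters, halved counts, DESeq2 and limma-voom, was 2 for peaks overlapping the gene only, and ran from 2 to 4 when 1 library was left out. The count of 1 lower peak held under those scalings and tests, was 0 for peaks overlapping the gene only, since the Col16a1 peak lies outside its gene, and ran from 0 to 2 when 1 library was left out. The sign of the small Col4a1 change (-0.10) turned by limma-voom (0.43), with the replicate block (0.0222) and without single libraries (-0.49 to 0.15). With the replicate block, 4 collagen peaks were higher and 1 lower, and the Col27a1 start peak passed (0.99, adjusted p = 0.0440); over all peaks the calls went from 1133 to 1375. Same-numbered libraries correlated at -0.052 to 0.08 in their deviations from the group means, and not every library correlated best with its own number, so the numbers were not taken to pair the samples. Low counts limit the rest: 19 of 72 collagen peaks did not pass the main filter. With no filter on low counts, all 72 were tested, and again 3 were called higher and 1 lower. These were the same 4 peaks.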
